A study of Mus musculus with 29 samples.

Results

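The 26 genes described here encode subunits of the ionotropic receptors for glutamate and GABA in the mouse. They are 17 glutamate receptor genes, namely 4 AMPA, 5 kainate, 7 NMDA and 1 delta subunit, and 9 GABA-A receptor genes, out of 48709 Ensembl gene identifiers in the RNA files. Members were taken by gene symbol, which the reference table paired with the identifiers. The material was cortex of mouse embryos at E16.5, treated with the histone deacetylase inhibitor TSA (trichostatin A) or with vehicle, from which Tbr2-positive and Tbr2-negative nuclei were separated by FACS. RNA-seq covered Tbr2-positive nuclei under TSA (2 libraries) and vehicle (3 libraries) and Tbr2-negative nuclei under TSA (2 libraries) and vehicle (3 libraries). ChIP-seq for H3K9ac, acetylation of lysine 9 of histone H3, covered the same groups with 4, 3, 4 and 4 libraries. Tbr2 is a transcription factor of basal progenitors and their newborn neurons, and the Tbr2-negative fraction is everything else, so it mixes neurons, interneurons, radial glia and non-neural cells. The labels name no mutant allele, and none of them says that replicates came from separate animals, so the p-values speak only for the spread among libraries, which may be technical. The RNA protocol text speaks of whole tissue where the series speaks of sorted nuclei.

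AMPA, kainate and NMDA receptors are tetramers that open a cation channel when glutamate binds, while GABA-A receptors are pentamers that open a chloride channel. NMDA receptors need the Grin1 subunit and combine it with glutamate-binding Grin2 or glycine-binding Grin3 subunits. In the embryonic cortex these channels come before most synapses: GABA depolarizes immature cells, and both transmitters act on progenitors and migrating neurons. H3K9ac is found at active promoters and enhancers, and TSA blocks the enzymes that remove such acetyl groups.

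Eomes, the gene of Tbr2, averaged 427 ± 50.3 CPM (counts scaled to library size) in Tbr2-positive nuclei under TSA (SD, n = 2) and 11.2 ± 4.19 CPM in Tbr2-negative nuclei under TSA (n = 2). Under vehicle it averaged 443 ± 93.3 CPM in Tbr2-positive and 18 ± 4.04 CPM in Tbr2-negative nuclei (n = 3 each). All 8 basal progenitor markers listed for the purpose were higher in the positive nuclei in both treatments. RNA libraries held 18567111 to 26282652 counts, and all 26 members were among the 20078 genes that passed the filter on low counts. The lowest count of a member in any library was 5, for Grin2c. CPM are not corrected for transcript length, so levels are compared between samples and not between genes.

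The promoters of 6 members are shown as examples. Those of Grik3, Gabra5, Grin3b and Gabra3 lacked an H3K9ac peak within 1 kb of the listed start in at least 1 library, and Gabra4 and Gabrb1 face each other. All are RefSeq sequences of the GRCm38.p6 build, from 250 bases before to 50 bases after a listed transcription start, written 5′ to 3′ on the gene's own strand, with each CG dinucleotide in capitals. Grik3 (chr4:125490446-125490745, plus strand), a kainate subunit, has the most CG dinucleotides of the 22 member promoters found, 50. Gabra5 (chr7:57510010-57510309, minus strand) has 13, Grin3b (chr10:79970474-79970773, plus strand) has 3, and Gabra3 (chrX:72656870-72657169, minus strand) has 0. Gabra4 (chr5:71658259-71658558, minus strand) has 12 and Gabrb1 (chr5:71657671-71657970, plus strand) has 25.
Grik3: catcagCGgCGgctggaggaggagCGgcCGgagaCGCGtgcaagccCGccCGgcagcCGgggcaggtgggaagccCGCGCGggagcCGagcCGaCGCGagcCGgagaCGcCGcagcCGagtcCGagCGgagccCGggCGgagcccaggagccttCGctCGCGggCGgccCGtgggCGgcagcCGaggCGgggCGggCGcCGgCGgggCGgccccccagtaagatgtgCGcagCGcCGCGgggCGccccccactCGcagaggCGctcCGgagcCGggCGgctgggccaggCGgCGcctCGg
Gabra5: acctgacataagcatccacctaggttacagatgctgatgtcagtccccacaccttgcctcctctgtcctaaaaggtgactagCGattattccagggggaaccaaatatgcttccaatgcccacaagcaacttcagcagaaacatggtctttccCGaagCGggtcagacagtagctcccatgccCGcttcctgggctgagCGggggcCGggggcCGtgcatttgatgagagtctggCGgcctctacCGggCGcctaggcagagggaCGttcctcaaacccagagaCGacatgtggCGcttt
Grin3b: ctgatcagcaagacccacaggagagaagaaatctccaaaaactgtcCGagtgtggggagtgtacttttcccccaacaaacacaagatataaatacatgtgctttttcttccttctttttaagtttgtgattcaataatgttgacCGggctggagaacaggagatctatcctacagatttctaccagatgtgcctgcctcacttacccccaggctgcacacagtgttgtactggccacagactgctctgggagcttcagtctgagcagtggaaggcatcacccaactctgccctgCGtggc
Gabra3: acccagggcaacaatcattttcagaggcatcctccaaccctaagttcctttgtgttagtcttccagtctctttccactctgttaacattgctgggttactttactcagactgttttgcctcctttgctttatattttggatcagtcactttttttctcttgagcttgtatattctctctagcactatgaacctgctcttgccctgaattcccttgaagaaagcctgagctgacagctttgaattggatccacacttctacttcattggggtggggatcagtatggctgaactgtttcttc
Gabra4: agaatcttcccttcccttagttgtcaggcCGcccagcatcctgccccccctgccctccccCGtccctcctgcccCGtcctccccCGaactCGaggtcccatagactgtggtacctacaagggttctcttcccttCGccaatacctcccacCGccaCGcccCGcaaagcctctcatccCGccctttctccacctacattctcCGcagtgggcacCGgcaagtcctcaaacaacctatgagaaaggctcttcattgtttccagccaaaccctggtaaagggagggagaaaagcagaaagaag
Gabrb1: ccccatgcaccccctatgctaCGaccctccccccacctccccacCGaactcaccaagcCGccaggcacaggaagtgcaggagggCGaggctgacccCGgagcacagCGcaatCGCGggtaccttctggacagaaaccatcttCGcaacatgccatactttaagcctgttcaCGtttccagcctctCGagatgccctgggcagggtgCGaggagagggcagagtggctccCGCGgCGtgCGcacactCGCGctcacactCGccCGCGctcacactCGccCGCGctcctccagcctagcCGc

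The comparison of Tbr2-positive with Tbr2-negative nuclei under vehicle asked which receptor transcripts set the progenitor fraction apart. Of the 26 subunit genes, 18 fell in Tbr2-positive nuclei, 0 rose and 8 did not pass (edgeR quasi-likelihood test, Benjamini-Hochberg adjusted p at 0.05). Among all 20078 genes tested, 11.5% were called lower and 9.96% higher. The median log2 fold change, positive over negative, was -1.87 over the members and -0.05 over all genes. The lower genes were all 4 AMPA subunits, 2 of 5 kainate subunits, 5 of 7 NMDA subunits, the delta subunit and 6 of 9 GABA-A subunits. Summed over each class, NMDA subunits stood at 53.5 to 96.7 CPM in positive and 361 to 431 CPM in negative libraries, and kainate subunits at 225 to 347 CPM in positive and 325 to 366 CPM in negative libraries, so that only the kainate sums overlapped among the AMPA, kainate and NMDA classes. In bulk samples, fewer cells that carry a transcript and less of it per cell cannot be told apart.

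**Figure D1:**
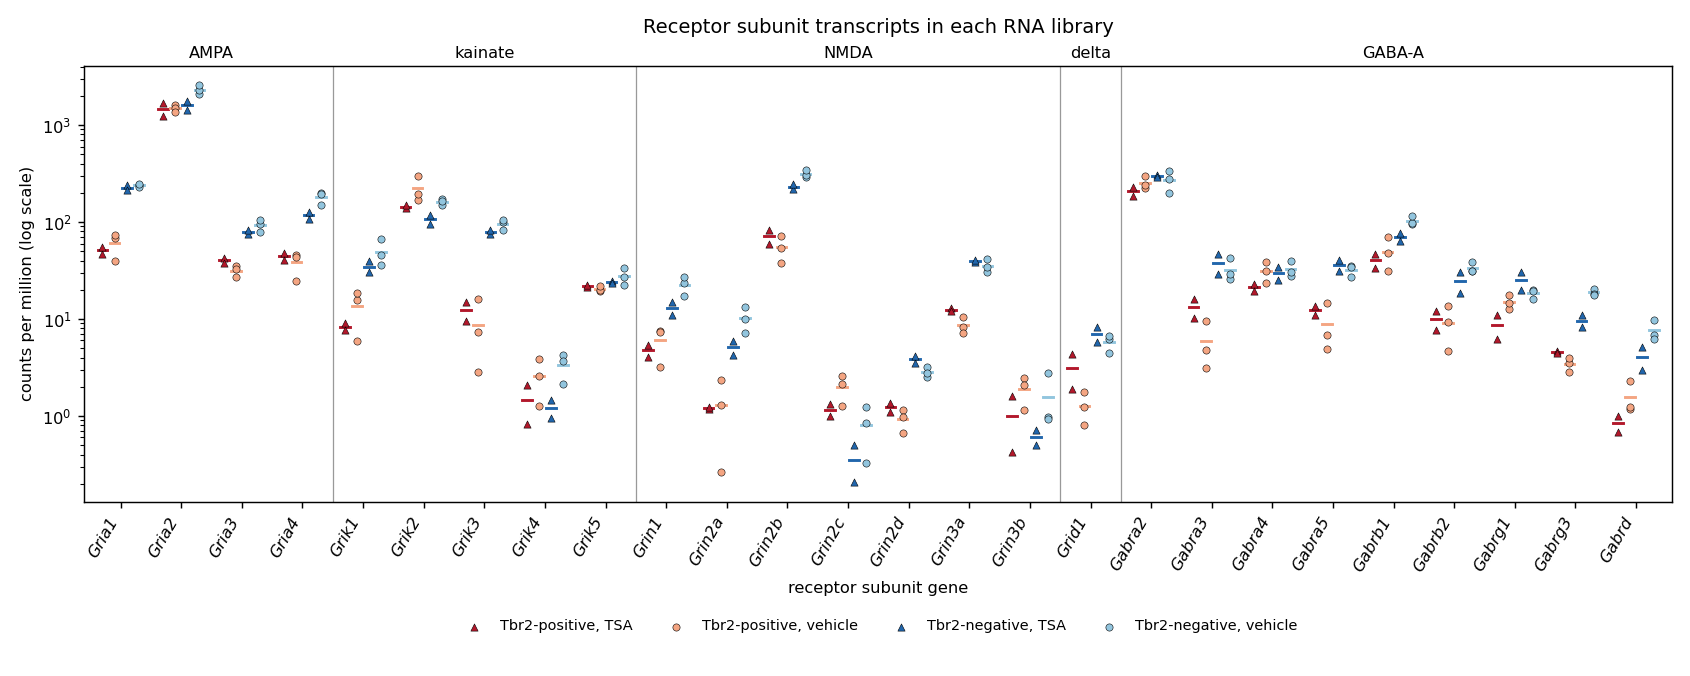
CPM of each subunit gene in every RNA library, on a log axis; triangles are TSA and circles vehicle libraries, and short bars are group means. Under vehicle, Grin2b stood at 38.2 to 72.0 CPM in Tbr2-positive nuclei and 292 to 345 CPM in Tbr2-negative nuclei.

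Among AMPA subunits, which carry fast excitatory transmission, Gria4 stood at 46.0, 44.0 and 24.7 CPM in the 3 Tbr2-positive vehicle libraries, against 149, 201 and 195 CPM in the 3 Tbr2-negative ones. Gria1 stood at 68.7, 73.1 and 39.7 CPM in positive nuclei, against 243, 228 and 249 CPM in negative nuclei. In both genes every positive library lay below every negative one, and the third positive library was the lowest. Gria4 fell by -2.25 ± 0.22 on the log2 scale (SE, edgeR adjusted p = 2.78e-05) and Gria1 by -1.99 ± 0.20 (adjusted p = 3.34e-05). Gria3 averaged 31.6 CPM in positive and 93.3 CPM in negative nuclei (log2 fold change -1.56 ± 0.16, edgeR adjusted p = 3.86e-05). Gria2, whose edited subunit keeps calcium out of the channel, differed least of the 4, with 1617, 1515 and 1367 CPM in positive nuclei against 2084, 2312 and 2558 CPM in negative nuclei. Its log2 fold change was -0.63 with an adjusted p of 0.0149 (edgeR), and the call was lost when positive library 2 or 3 or negative library 3 was left out (adjusted p up to 0.0799).

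The kainate subunits divided. Grik3, which can form a channel by itself, stood at 7.33, 16.1 and 2.86 CPM in Tbr2-positive nuclei, against 101, 82.5 and 106 CPM in Tbr2-negative nuclei. It was 11-fold lower, the largest difference among the members (-3.46 ± 0.44 on the log2 scale, edgeR adjusted p = 0.000147), and the log2 fold change was -4.22 without positive library 2. Grik1 fell by -1.87 on the same scale, with 13.5 CPM on average in positive and 49.4 CPM in negative nuclei. Grik2 ran the other way without passing: 301, 170.3 and 193 CPM in positive nuclei against 151, 172 and 165 CPM in negative nuclei (log2 fold change 0.45, edgeR adjusted p = 0.124). Without positive library 2, the one that overlapped the negative range, Grik2 passed at an adjusted p of 0.0453. The high-affinity subunits Grik4 and Grik5, which need another kainate subunit as partner, had log2 fold changes of -0.39 and -0.42 and did not pass (adjusted p = 0.693 and 0.155, edgeR).

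Grin2b, the Grin2 subunit typical of the embryonic forebrain, had the smallest adjusted p of the set. It stood at 54.5, 72.0 and 38.2 CPM in Tbr2-positive nuclei, against 292, 305 and 345 CPM in Tbr2-negative nuclei (log2 fold change -2.52 ± 0.22, edgeR adjusted p = 1.16e-05). Grin3a, which lowers the calcium permeability of the receptor, stood at 8.17, 10.6 and 7.17 CPM in positive nuclei and at 30.7, 34 and 41.5 CPM in negative nuclei (log2 fold change -2.03 ± 0.21, edgeR adjusted p = 3.77e-05). Neither gene's groups overlapped. The obligatory subunit Grin1 averaged 6.0 CPM in positive and 22.6 CPM in negative nuclei, a fall of -1.91 ± 0.34 on the log2 scale (edgeR adjusted p = 0.00152). Grin2a, whose share of NMDA receptors grows after birth, averaged 1.31 CPM in positive and 10.1 CPM in negative nuclei (log2 fold change -2.94, or -3.66 without positive library 2). Grin2d, typical of interneurons and of subcortical regions, averaged 0.932 CPM against 2.82 CPM (log2 fold change -1.59, edgeR adjusted p = 0.0335), and its call was lost in 10 of 16 other settings. Grin2c and Grin3b, at 1.99 and 1.90 CPM in positive nuclei and 0.798 and 1.56 CPM in negative nuclei, did not pass.

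The delta subunit Grid1, a synaptic organizer that glutamate does not open, stood at 0.800, 1.24 and 1.76 CPM in Tbr2-positive nuclei, against 6.21, 4.47 and 6.67 CPM in Tbr2-negative nuclei. The groups did not overlap, and the log2 fold change was -2.19 (edgeR adjusted p = 0.00471).

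Among GABA-A subunits, Gabrg3 stood at 3.50, 3.92 and 2.86 CPM in Tbr2-positive nuclei, against 20.6, 18.2 and 17.8 CPM in Tbr2-negative nuclei. Gamma subunits take part in the benzodiazepine site, and this one had the smallest adjusted p of its class (log2 fold change -2.46 ± 0.28, edgeR adjusted p = 6.19e-05). Gabra3 averaged 5.87 CPM in positive and 32.4 CPM in negative nuclei (log2 fold change -2.46 ± 0.38, edgeR adjusted p = 0.000595). Gabra5, an alpha subunit of mostly extrasynaptic receptors, averaged 8.81 CPM in positive and 32.2 CPM in negative nuclei (log2 fold change -1.87 ± 0.34, edgeR adjusted p = 0.0017). Gabrd, which carries tonic inhibition in the adult, fell by -2.27, and the beta subunits Gabrb2 and Gabrb1 fell by -1.87 and -1.06, all on the log2 scale. Gabra2, Gabra4 and Gabrg1 had log2 fold changes of -0.09, -0.07 and -0.29 and overlapping groups, and did not pass (adjusted p = 0.786, 0.876 and 0.511, edgeR). These 3 genes and Gabrb1 lie in 1 cluster on chromosome 5, with Gabra4 and Gabrb1 head to head and their ends 387 bp apart, whereas Gabra5 and Gabrg3 are neighbours on chromosome 7, 20454 bp apart. The TruSeq v2 kit does not keep strand, so reads from the short overlap of Gabra4 and Gabrb1 cannot be assigned to one of them.

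Genes that work with the receptors were counted in the same way. Of 14 auxiliary subunits of glutamate receptors, 10 fell and 1 rose, with a median log2 fold change of -1.49; the 3 with the smallest adjusted p were Neto2, a kainate receptor partner (-2.15), Cacng4, an AMPA receptor partner (-1.91), and Shisa7 (-2.39). Of 21 excitatory scaffold genes 11 fell and 1 rose (median -1.04), among them Grip2 (-2.74), Camk2b (-2.1) and Dlg2 (-2.09). Of 9 inhibitory postsynaptic genes 6 fell and 0 rose, and of 9 metabotropic glutamate and GABA receptor genes 7 fell and 0 rose, among them Gabbr2 (-2.34) and Grm5 (-2.62). Of 11 transporter and transmitter synthesis genes 6 fell and 2 rose. The vesicular glutamate transporter Slc17a6 rose by 2.81 ± 0.20 on the log2 scale (edgeR adjusted p = 4.89e-06), while the GABA-synthesizing enzymes Gad1 and Gad2 fell by -2.71 and -2.17.

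Several sets of cell type markers also differed between the populations. All 15 interneuron markers were lower in Tbr2-positive nuclei, with a summed level of 189 to 408 CPM in positive and 1114 to 1376 CPM in negative vehicle libraries. Pan-neuronal markers, 10 lower and 2 higher of 14, summed to 5637 to 7001 CPM in positive and 8932 to 11389 CPM in negative libraries. Of the 8 deep-layer neuron markers 6 were lower and 0 higher, with sums of 705 to 829.1 CPM in positive and 1137 to 1386 CPM in negative libraries. Of the 7 upper-layer markers 4 were lower and 2 higher. Of the 8 radial glia markers 2 were higher and 0 lower, with sums of 962 to 1252 CPM in positive and 796 to 851 CPM in negative libraries. Within the positive vehicle group, library 3 had the lowest level of 17 of the 26 members and the lowest interneuron sum (189 CPM). Library 2 had the highest level of 14 members and the highest interneuron sum (408 CPM). The basal progenitor sum was highest in library 3 (2016 CPM) and lowest in library 2 (1445 CPM). In the other groups the interneuron sums ran differently. Negative vehicle library 3 had the highest level of 13 members and the lowest interneuron sum (1114 CPM). Its basal progenitor sum was 183 CPM. Library 1 of that group had the lowest level of 15 members and the highest basal progenitor sum (244 CPM). Negative TSA library 1 had the lowest level of 18 members, the higher interneuron sum (2194 CPM) and the higher basal progenitor sum (198 CPM). Positive TSA library 1 had the lowest level of 16 members and the higher interneuron (377 CPM) and basal progenitor sums (1756 CPM). These orders rest on few libraries per group. Markers of oligodendrocyte precursors (4 of 5 lower) summed to 6.82 to 12.9 CPM in positive and 38.8 to 55.7 CPM in negative libraries, and those of microglia (2 of 6 lower) to 9.94 to 20.9 CPM in positive and 27.8 to 48.5 CPM in negative libraries. Of 8 nucleus-retained long noncoding RNAs, 5 were lower and 1 higher in positive nuclei (median log2 fold change -1.56). Their summed level did not fall with this median: it was 10301 to 14129 CPM in positive and 8485 to 13478 CPM in negative libraries, which overlap. Those with the smallest adjusted p were Rian, Mirg and Meg3. The part of these cell types and of RNA handling in the subunit differences was not tested.

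Under TSA the positive and negative nuclei were compared over 2 libraries each. Of the 26 members 11 fell in Tbr2-positive nuclei and 0 rose, against 5.13% of all genes lower and 4.19% higher. The median log2 fold change was -1.35 over the members and -0.02 over all genes. The 11 were Gria1, Gria3, Gria4, Grik1, Grik3, Grin1, Grin2b, Grin3a, Gabra5, Gabrg1 and Gabrd. The count was 5 without positive TSA library 1, 6 without positive TSA library 2, 7 without negative TSA library 1 and 6 without negative TSA library 2, which leaves 1 library in an arm whose spread is then taken from the other groups.

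Gria1 stood at 47.3 and 55.3 CPM in Tbr2-positive nuclei under TSA, against 238 and 212 CPM in Tbr2-negative nuclei (log2 fold change -2.13 ± 0.25, edgeR adjusted p = 0.000371). Grin3a stood at 12.9 and 12 CPM in positive nuclei, against 38.8 and 41.0 CPM in negative nuclei (log2 fold change -1.68 ± 0.26, edgeR adjusted p = 0.00194). Grin2b stood at 59.1 and 83.4 CPM in positive nuclei, against 217 and 244 CPM in negative nuclei (log2 fold change -1.69 ± 0.26, edgeR adjusted p = 0.00207). In these 3 genes no positive library reached the lowest negative one, and their calls held in every alternative and with any library left out. Gria4 stood at 48.0 and 40.8 CPM in positive nuclei, against 107 and 128 CPM in negative nuclei (log2 fold change -1.40 ± 0.27, edgeR adjusted p = 0.00624). Grik3 stood at 9.64 and 14.9 CPM in positive nuclei, against 74.4 and 83.6 CPM in negative nuclei (log2 fold change -2.69, edgeR adjusted p = 0.00699). Grid1, at 1.91 and 4.33 CPM in positive nuclei against 5.80 and 8.36 CPM in negative nuclei, did not pass (edgeR adjusted p = 0.218). Gabrg1 passed under TSA, with 6.15 and 11.1 CPM in positive nuclei against 30.8 and 19.8 CPM in negative nuclei (log2 fold change -1.55, edgeR adjusted p = 0.0139), and had not under vehicle. The call was lost without positive TSA library 1, without negative TSA library 1 and with only these groups in the fit (adjusted p up to 0.162). That difference between the treatments was itself tested by the interaction and did not pass (log2 difference -1.26, edgeR adjusted p = 0.895).

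**Figure D2:**
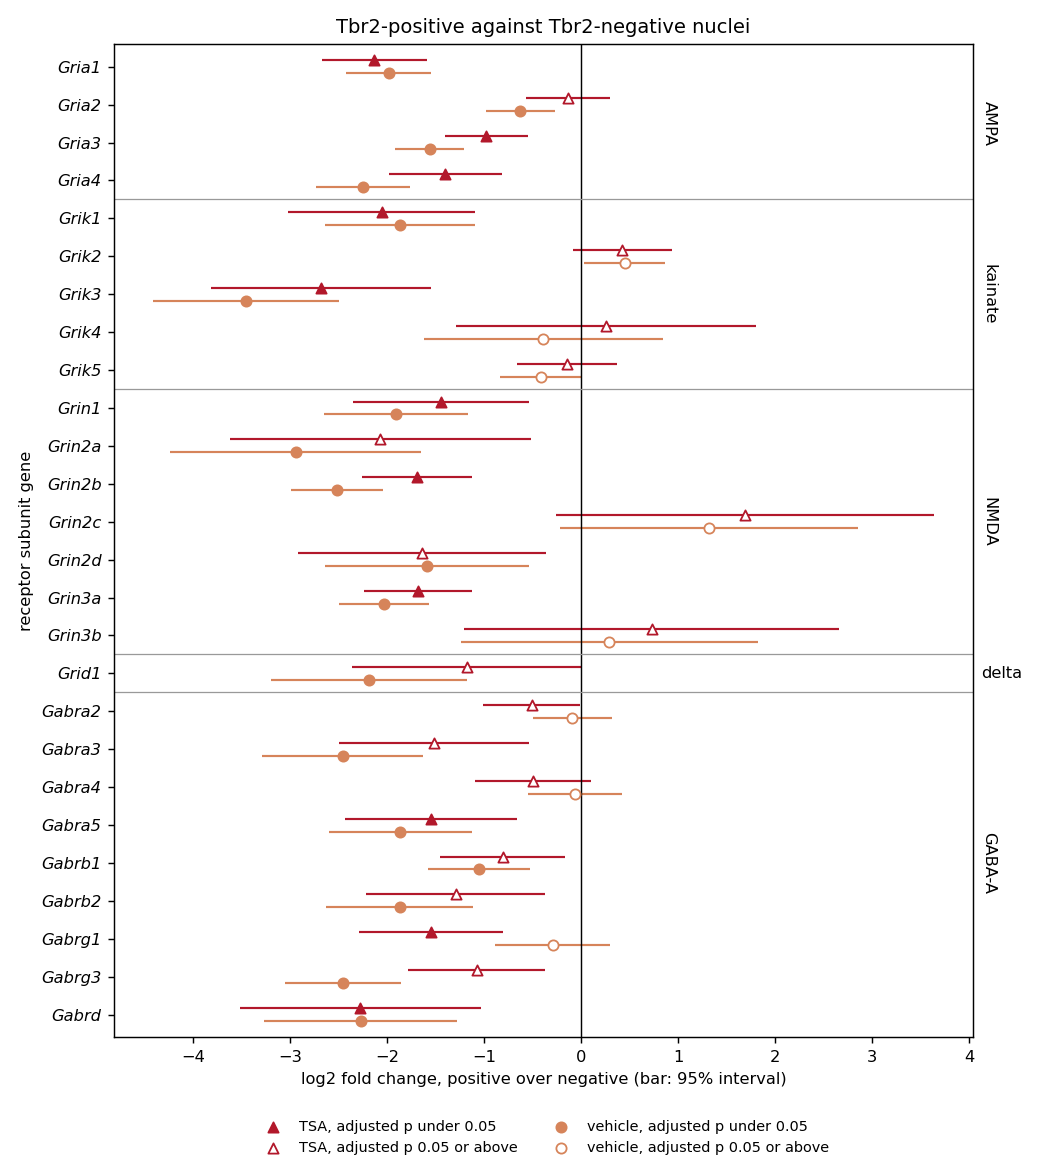
Log2 fold change of each subunit gene in Tbr2-positive over Tbr2-negative nuclei, with 95% intervals, under TSA (triangles) and vehicle (circles); filled symbols passed an adjusted p of 0.05. Under TSA 11 and under vehicle 18 of the 26 genes were called, each of them left of 0.

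Interneuron markers again stood apart under TSA, with all 15 lower and a summed level of 341 to 377 CPM in positive against 1962 to 2194 CPM in negative libraries. Of 14 pan-neuronal markers 5 were lower and 1 higher, and of 8 deep-layer markers 3 were lower and 0 higher. Of 7 upper-layer and of 8 radial glia markers, 1 in each set was lower and 1 higher. Also lower were 3 of 5 oligodendrocyte precursor and 3 of 6 microglia markers and 3 of 8 nucleus-retained long noncoding RNAs. The sums of these RNAs overlapped, at 5867 to 11989 CPM in positive and 5642 to 7942 CPM in negative libraries. The part of these sets in the subunit differences was not tested. Of the genes that work with the receptors, 8 of 14 auxiliary subunits, 5 of 21 excitatory scaffold genes, 4 of 9 inhibitory postsynaptic genes and 4 of 9 metabotropic receptor genes fell, and 0 of them rose. Neto2 (log2 fold change -1.62), Neto1 (-2.67) and Cacng4 (-1.37) led the auxiliary subunits. Slc17a6 rose by 2.70 and Gad2 fell by -2.63 on the log2 scale.

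The effect of TSA was asked in each population. In Tbr2-positive nuclei 0 of 26 members passed, as did 0% of all genes tested (edgeR). At an unadjusted p under 0.05 there were 6 members, 3 higher and 3 lower, against 1615 higher and 1560 lower of all 20078 genes. DESeq2 called 0 members, though 550 genes higher and 495 lower in all. The member with the smallest adjusted p was Gabra3, with 10.2 and 16.2 CPM under TSA against 4.84, 9.64 and 3.13 CPM under vehicle (log2 fold change 1.17, edgeR adjusted p = 0.192). Grik2 stood at 138 and 149 CPM under TSA and 301, 170.3 and 193 CPM under vehicle (log2 fold change -0.63, edgeR adjusted p = 0.193). Grid1 stood at 1.91 and 4.33 CPM under TSA and 0.800, 1.24 and 1.76 CPM under vehicle (log2 fold change 1.30, edgeR adjusted p = 0.233). Gabrg1 stood at 6.15 and 11.1 CPM under TSA and 17.9, 12.6 and 14.5 CPM under vehicle (log2 fold change -0.80, edgeR adjusted p = 0.242). In each of these 4 genes, picked by smallest p, the TSA libraries lay outside the vehicle range, yet no difference passed. Over the 26 members such separation came in both directions, 5 higher and 4 lower. Its share over all genes was not counted, so these counts cannot be read as particular to the members.

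In Tbr2-negative nuclei 0 of 26 members passed, against 0.817% of all genes higher and 0.359% lower, 1.18% in all (edgeR). Of the members 5 were lower and 0 higher at an unadjusted p under 0.05, against 1964 lower and 2073 higher of all 20078 genes. DESeq2 called 2 members lower, Gria2 (adjusted p = 0.0402) and Gabrg3 (adjusted p = 0.0112). The median log2 fold change was -0.46 over the members and -0.09 over all genes. Gabrg3 stood at 8.23 and 11 CPM under TSA against 20.6, 18.2 and 17.8 CPM under vehicle (log2 fold change -0.97, edgeR adjusted p = 0.0978). Gria2 stood at 1428 and 1789 CPM under TSA against 2084, 2312 and 2558 CPM under vehicle (log2 fold change -0.53, edgeR adjusted p = 0.132). Grik2 stood at 94.8 and 119 CPM under TSA against 151, 172 and 165 CPM under vehicle (log2 fold change -0.60, edgeR adjusted p = 0.147). Gria4 stood at 107 and 128 CPM under TSA against 149, 201 and 195 CPM under vehicle (log2 fold change -0.63, edgeR adjusted p = 0.169). The TSA libraries of these 4 genes, picked by smallest p, lay below the vehicle libraries. Of the 26 members in all, 12 were separated in this way and 1 in the other direction. The share of all genes so separated was not counted, so these counts cannot be read as particular to the members. In the same nuclei the interneuron markers summed to 1962 to 2194 CPM under TSA and 1114 to 1376 CPM under vehicle, with 2 of 15 higher, and their part in the subunit values was not tested.

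**Figure D3:**
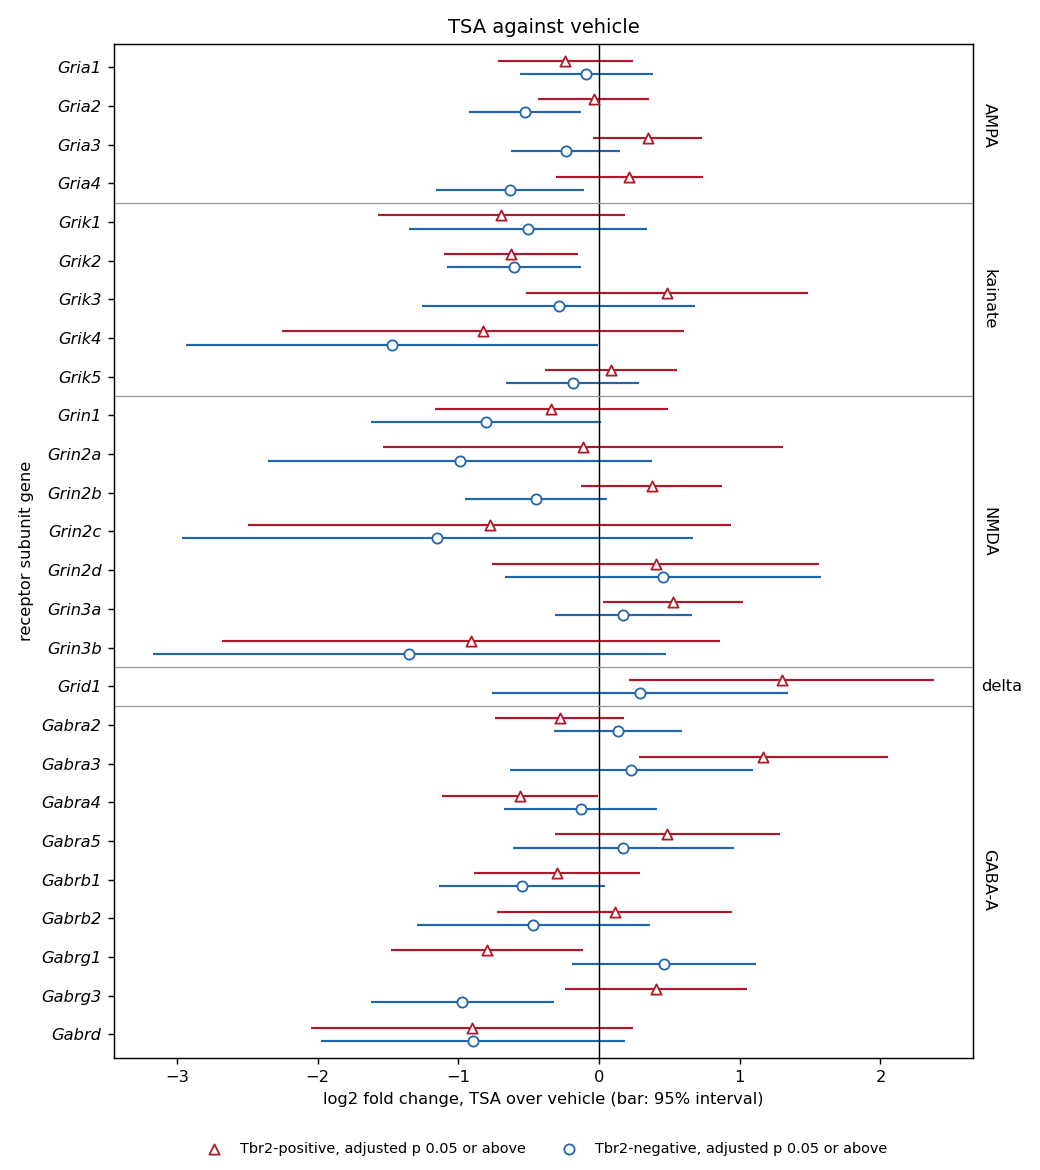
Log2 fold change of each subunit gene under TSA over vehicle, with 95% intervals, in Tbr2-positive (triangles) and Tbr2-negative nuclei (circles). All symbols are open because 0 of the 26 genes passed an adjusted p of 0.05 in either population.

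The response of the populations was compared by the interaction, the TSA effect in positive minus that in negative nuclei. It passed for 0 of 26 members and 0% of all genes (edgeR), and DESeq2 called 0 members. At an unadjusted p under 0.05 by edgeR there were 5 members, against 1103 of all 20078 genes. The member with the smallest p was Gabrg3, whose log2 difference was 1.38 ± 0.42 (95% interval 0.47 to 2.29, edgeR adjusted p = 0.895). In positive nuclei it stood at 4.67 and 4.42 CPM under TSA, above the vehicle libraries at 3.50, 3.92 and 2.86 CPM, and in negative nuclei its TSA libraries lay below those of vehicle. The next were Gabrg1 (-1.26), Grin2b (0.82), Gria4 (0.85) and Gria3 (0.58), none of which passed.

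Signs of RNA handling were compared between TSA and vehicle libraries. The 74 cytosolic ribosomal protein genes tested had a median log2 fold change of 0.83 in positive nuclei, where 0 passed, and 0.84 in negative nuclei, where 20 passed as higher. The 8 nucleus-retained long noncoding RNAs had medians of -0.66 in positive and -0.99 in negative nuclei, and 0 passed in either. The part of these differences in the subunit values was not tested. Of the genes that work with the receptors, 1 fell under TSA, the scaffold gene Grip2 in negative nuclei (log2 fold change -1.58, edgeR adjusted p = 0.0481), and 1 rose, Gabarap in negative nuclei (0.83, adjusted p = 0.0482).

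H3K9ac was read as the presence of at least 1 peak within 1 kb of either end of a gene, since the reference table gives most genes without strand. All 26 members had such a peak in every Tbr2-negative library, TSA and vehicle alike. In Tbr2-positive nuclei 18 members had one in every TSA library and 22 in every vehicle library. Of 21883 protein-coding genes, 54.8% had a peak in every positive TSA library, 59.9% in every positive vehicle library, 59.7% in every negative TSA library and 60.7% in every negative vehicle library.

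**Figure D4:**
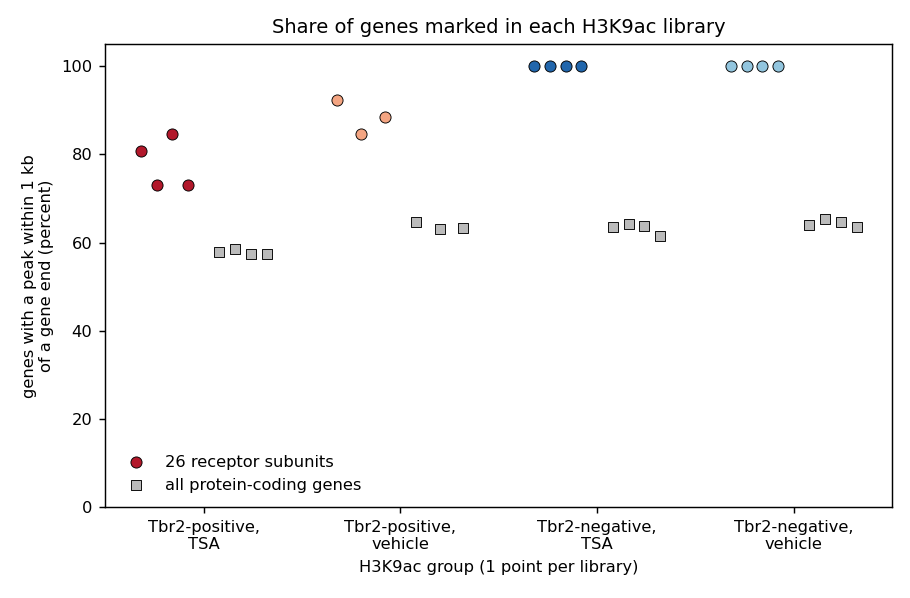
Percent of the 26 subunit genes (coloured circles) and of 21883 protein-coding genes (grey squares) with an H3K9ac peak within 1 kb of a gene end, 1 point per library. The subunits reached 73.1 to 84.6% in Tbr2-positive TSA libraries, 84.6 to 92.3% in Tbr2-positive vehicle libraries and 100% in each Tbr2-negative library.

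The positive TSA libraries held fewer peaks than the rest, 31823 to 40053, against 61487 to 82164 in positive vehicle libraries, 47835 to 78929 in negative TSA libraries and 56403 to 78773 in negative vehicle libraries. Each group's peaks were called against 1 input, with 20118388 tags for the positive TSA group, 30061311 for positive vehicle, 25947550 for negative TSA and 28520910 for negative vehicle, so input and group cannot be told apart. Fisher's exact test over libraries cannot give a p below 0.0286 at these group sizes, and after adjustment over all genes 0 passed in any of the 4 comparisons. Differences are therefore given by size, as a peak in every library of one group and in none of the other.

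Under vehicle 2 members lacked the mark in all 3 Tbr2-positive libraries and carried it in all 4 Tbr2-negative libraries, Grin2a and Grik2, against 0.42% of all genes. No member showed the reverse, as did 0.101% of all genes. Grin2a (chr16:9567901-9996083) had 0 covered bases at its ends in the 3 positive vehicle libraries, and 773, 856, 857 and 910 bases in the 4 negative ones. Under TSA it had 0 bases in all 4 positive and 727 to 775 bases in all 4 negative libraries. Over the whole gene and 1 kb on either side, it held 0 to 1 peaks in positive TSA, 1 to 3 in positive vehicle, 3 to 6 in negative TSA and 2 to 5 in negative vehicle libraries. The Grik2 difference is one of the window: in negative nuclei a peak reached 21 to 157 bases into it, and its listed start, 1407 bp from the gene end, was marked in all 15 libraries.

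Under TSA 4 members lacked the mark in all Tbr2-positive and carried it in all Tbr2-negative libraries, Grik2, Grin2a, Grin3b and Gabrd, against 1.35% of all genes, and 0 showed the reverse, against 0.00457%. Gabrd (chr4:155384979-155398098) had 0 covered bases in the 4 positive TSA libraries and 554 to 853 bases in the 4 negative TSA libraries. Grik3 did not meet the criterion but differed in extent: 176, 0, 203 and 0 covered bases in positive TSA libraries, against 1810, 1756, 1792 and 1705 in negative TSA libraries. Under vehicle it had 290, 0 and 0 bases in positive nuclei, against 1756, 1909, 1516 and 1725 in negative nuclei. These values depend on the window, since the listed start of Grik3 lies 437 bp from the gene end. A peak lay within 1 kb of that start in 3 of 4 positive TSA and 2 of 3 positive vehicle libraries. All negative libraries had one there. Over the whole gene Grik3 held 1 to 2 peaks in positive TSA, 3 to 6 in positive vehicle, 16 to 24 in negative TSA and 11 to 17 in negative vehicle libraries.

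Gabra5 stood out at its listed start, whose promoter is printed above and which lies 80957 bp inside the gene. A peak lay within 1 kb of that start in 0 of 3 positive and 4 of 4 negative vehicle libraries, and in 0 of 4 positive and 4 of 4 negative TSA libraries. By the same criterion, 0.383% of 17491 genes with a listed start lost the mark under vehicle and 1.05% under TSA. The outer end of Gabra5 was marked in all 15 libraries, and another protein-coding gene ends 498 bp from it.

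The covered length at the gene ends, summed over the 26 members, was 14.7 to 15.2 kb in positive TSA libraries, 19.7 to 20.9 kb in positive vehicle libraries, 27.5 to 31.3 kb in negative TSA libraries and 30.0 to 31.2 kb in negative vehicle libraries. As a share of the covered length of all genes it was 0.114 to 0.121%, 0.125 to 0.136%, 0.184 to 0.188% and 0.182 to 0.191% in the same order, so the populations differed also relative to all genes. A marked member had on average 676 to 797 covered bases in positive TSA libraries, 819 to 948 in positive vehicle libraries, 1059 to 1204.5 in negative TSA libraries and 1155 to 1198 in negative vehicle libraries. Under vehicle 16 of 26 members were shorter in every positive library than in any negative one, against 16.4% of genes marked in at least 1 library, and 0 were longer, against 4% of genes. Under TSA 20 of 26 were shorter, against 29.5% of genes, and 0 longer, against 0.383%.

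**Figure D5:**
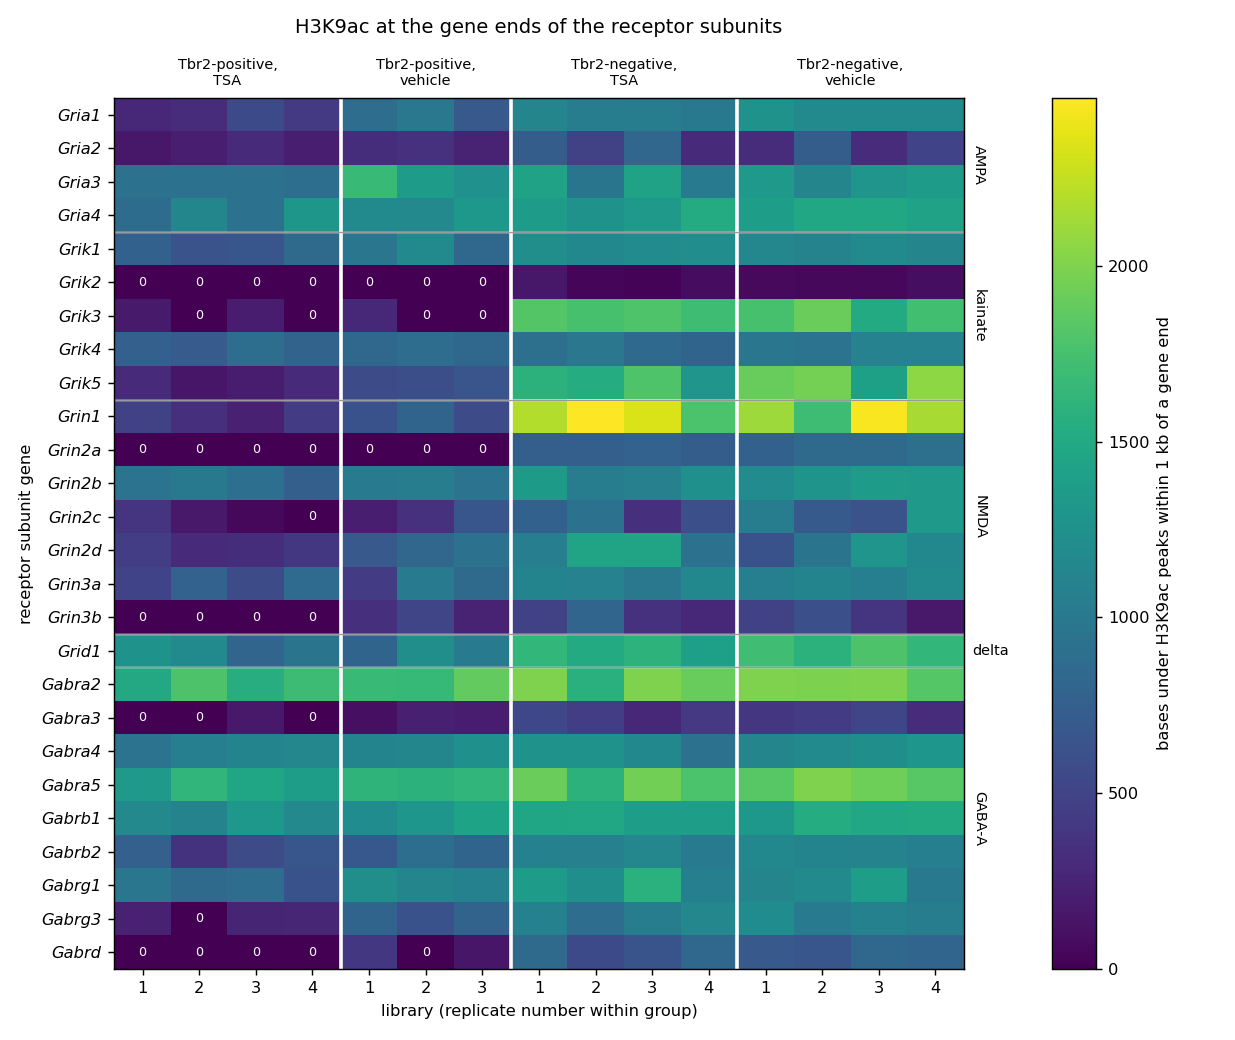
Bases under H3K9ac peaks within 1 kb of the ends of each subunit gene in each of 15 libraries, with 0 written where no peak was found. Dark is low and bright is high: Grik3, Grik5 and Grin1 are dark in Tbr2-positive and bright in Tbr2-negative libraries, while Gabra2 stands at 1495 bases or more in all 15.

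Grin1 showed a large difference of this kind under vehicle, with 567 to 795 covered bases in positive and 1712 to 2449 in negative libraries. Its start was marked in all 15 libraries, and its far end, which 2 other genes share, was marked in 0 of 4 positive TSA, 2 of 3 positive vehicle and all 8 negative libraries. Grik5, whose high-coordinate end lies 20 bp from the gene Zfp574, had 570 to 654 bases in positive and 1403 to 2052 in negative vehicle libraries, and its RNA difference did not pass. Of the 18 members with lower RNA under vehicle, 13 also had shorter H3K9ac coverage, which is 13 of the 16 members with shorter coverage. Among all genes with both measures, 41.2% of those with lower RNA and 13.2% of the rest had shorter coverage. The other 3 with shorter coverage were Grik2, Grik4 and Grik5, and the 5 with lower RNA but overlapping coverage were Gria2, Gria3, Grik1, Grin2d and Gabrb1. Under TSA 9 of the 11 members with lower RNA had shorter coverage, which is 9 of 20 with shorter coverage, and among all genes 63.4% of those with lower RNA and 27.7% of the rest.

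TSA was also set against vehicle within each population. In Tbr2-positive nuclei Grin3b lost its mark, with 0 covered bases in all 4 TSA libraries and 341, 520 and 236 bases in the 3 vehicle libraries, against 1.06% of all genes, and 0 gained one, against 0.00457%. The Grin3b call was lost at a −log10 q of 5, with the 30000 strongest peaks of each library, and with windows of 0.5 kb and 5 kb. Its RNA stood at 0.424 and 1.6 CPM under TSA and 2.44, 2.1 and 1.14 CPM under vehicle, which did not pass (edgeR adjusted p = 0.633). Gabra3 had 0, 0, 165 and 0 bases under TSA against 104, 219 and 196 under vehicle, and Gabrd 0 in all 4 TSA libraries against 403, 0 and 154 under vehicle. Of the 24 members with a peak in either group, 8 were shorter in every TSA library, against 32.1% of genes, a share near that of the members, and 0 were longer, against 0.174%. In Tbr2-negative nuclei no member lost or gained its mark, against 0.0274% of genes that lost and 0.00914% that gained it, and 1 member, Gria1, was shorter under TSA (1004 to 1132 bases against 1178 to 1276 under vehicle), against 3.29% of genes, and 0 were longer, against 0.737%.

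Promoter sequences were found for 18 members, with 22 listed starts. They held a median of 12.5 CG dinucleotides, against 7.0 over all 32817 promoters in the table. The listed start was marked in every library for 12 members, whose promoters had 3 to 42 CG dinucleotides (median 21.0). For the other 6, Grik3, Grin2c, Grin3b, Gabra3, Gabra5 and Gabrg3, the range was 0 to 50 (median 13), with both the richest promoter, that of Grik3, and the poorest, that of Gabra3. On either strand, the GC box GGGCGG, which Sp1 family factors bind, was in 9 of the 22 member promoters, among them those of Grik3 and Gabra4, and in 35.6% of all promoters. The E box CAGATG, the form that proneural factors prefer, was in 2 of 22, of Grin3b and Gabra5, and in 17.2% of all promoters. The T-box motif GGTGTGA was in 0 of 22 and 3.98% of all promoters, and the TATA box TATAAA in 4 of 22, of Grin3b, Gabra3 and Gabrb2, and 13.6% of all promoters. A match is only a stretch of letters in this window and shows neither binding nor its absence.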

How the data were processed

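The authors deposited unnormalized counts for each Ensembl identifier; the submitters' processing notes name SAMtools and the mm10 build. Which aligner, counter and annotation made them is not given in the sources used here. Per the file headers, H3K9ac peaks come from MACS 2.1.0.20140616 at a q-value of 0.1, in each library against 1 input per group with duplicates removed; of the deposited values the positions and the −log10 q were used. The 4 input samples were not analysed here. The count test was edgeR 4.0.16 under R 4.3.3 (filterByExpr, TMM, quasi-likelihood with robust estimation, 10 libraries in one fit, Benjamini-Hochberg adjustment over all genes), and DESeq2 1.42.0 as an alternative. CPM use TMM-scaled library totals, and each SE comes from the size of the log2 change over the root of its F statistic. In simulated counts for the vehicle comparison of the populations, edgeR recovered 95% of 4-fold and 17% of 2-fold changes (100 genes each of 20078). For the populations under TSA it recovered 71% and 8%. For TSA against vehicle it recovered 90% and 10% in positive and 85% and 8% in negative nuclei. The simulated spread was set below that of the data, whose common biological coefficient of variation was 0.374. Changes were planted only in genes above a floor in mean CPM, which Grin2c and Grin3b did not reach. The recovered shares may therefore be too high for the members. Peaks were matched to the ends of protein-coding genes of GRCm38.p6, the build of the RefSeq tables, with 1 bp of overlap; tests were two-sided Fisher tests. ChIP libraries held 15173175 to 30267202 tags. Every member was named; full statistics were kept for up to 10 passing members by adjusted p in a comparison, and values per library for up to 4 a direction and for 1 member per receptor class between the populations; in H3K9ac members whose share of marked libraries differed by at least 0.5 were named, and of other lists up to 3 passing genes. Gabra5, Grin1 and Grik5 in H3K9ac and the promoters shown were chosen after their values were seen. The members and lists were chosen with earlier results of these data known. Alternatives were other scaling, filters and tools, leaving out each library, other peak thresholds and windows.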

Additional observations from a re-analysis of the deposited data

Results flagged for a closer look

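For Gabrg3 each TSA library lay above the vehicle libraries in Tbr2-positive nuclei and below them in Tbr2-negative nuclei, though neither difference passed by edgeR. Such opposite separation was looked for in every member, and its share over all genes was not counted. The log2 difference of the effects was 1.38, and the test of that difference did not pass (adjusted p = 0.895, edgeR). In covered bases at the gene ends, the third Tbr2-positive TSA library stood apart for Gabra3, with 165 bases where the other 3 had 0. For Grik2 the fourth Tbr2-negative vehicle library had 95 bases, against 53, 53 and 60 in the others. The search covered 30 groups of 4 libraries, some of which had equal values throughout and could not be flagged. The nominal chance rate of about 1 in 20 does not hold where values are tied, as for Gabra3.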

How the results depend on the processing

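Of the counts over the 26 members, 308 of 329 recomputed values stayed within 1.5 times the reported one. Many of these were counts of 0 that stayed 0. Of the fold changes of named genes 743 of 795 kept their direction and their side of the threshold. For RNA both tallies include leaving out libraries that a comparison does not use, so they overstate how stable the results were. With a library left out in turn, the members lower in Tbr2-positive nuclei numbered 16 to 18 under vehicle and 5 to 14 under TSA, and those higher 0 to 1 under vehicle. The log2 fold change under vehicle turned positive for Gabra2 without positive library 2 (0.0041) and without negative library 2 (0.089), with a range of -0.27 to 0.089 over libraries left out, and for Gabra4 without positive library 3 (0.11) and without negative library 2 (0.09), with a range of -0.23 to 0.11. DESeq2 called 2 members lower under TSA in negative nuclei, where edgeR called 0, and the cause was not tested. Over all genes DESeq2 called 1049 higher and 974 lower there, against 164 and 72 by edgeR, and 1431 higher and 1644 lower between populations under TSA, against 841 and 1030 by edgeR. Under TSA the Grin1 call between populations was lost in 13 of 16 alternatives. With the replicate block, 18 members were lower under vehicle and 11 under TSA, 10 of them the same. Deviations from the group mean correlated at 0.0806 to 0.0994 between same-numbered positive and negative libraries under vehicle. Under TSA the value was 0.117 for both pairs, which are equal by construction with 2 libraries per group. Differently numbered libraries were not correlated, so these values cannot tell whether the numbers pair the samples. The main fit did not pair them. No paired analysis was run for H3K9ac, whose calls were made by size. Members that lost the mark in positive against negative nuclei under vehicle numbered 1 with a 0.5 kb window, 0 with 5 kb, 1 at the listed start, 1 with an overlap of 100 bp and 0 over the gene body, the last chosen after seeing the data. Under TSA they numbered 1 with 5 kb, 2 at the listed start and 2 over the gene body. The listed start was known for 18 members only. The member lost there under vehicle was Gabra5, and those under TSA were Gabra5 and Grin3b. Grik2 was marked at its listed start in every library, and Grin2a had no listed start. For TSA against vehicle in positive nuclei the count was 0 at a −log10 q of 5, 0 with the 30000 strongest peaks, 0 with 0.5 kb and 0 with 5 kb. At the listed start 17 of 18 members were marked in every negative TSA library. Leaving out a library gave 2 to 3, 4 to 5 and 1 to 2 members in these 3 comparisons, with Gabrd added without positive vehicle library 2 and Gabra3 added without positive TSA library 3. The low counts of Grin2a, Grin2c, Grin2d, Grin3b, Grik4, Grid1 and Gabrd limit their precision.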
